A study of Mus musculus with 6 samples.

Results

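Homing, adhesion and egress receptors are the 9 genes Cxcr4, Cxcr5, Ccr7, S1pr1, S1pr4, Cd44, Itga4, Itgb7 and Itgb2. They were chosen by name from 37991 gene identifiers, with earlier results of these data known. All 9 were among the 16683 genes with enough reads to be tested. Messenger RNA was counted in B220 high, IgM low, IgD low pre-B cells that had been sorted from the bone marrow of C57BL/6 mice at 3 stages, with 2 libraries for each stage. Wild type cells came from littermates without the transgene, aged 4 to 6 weeks. Premalignant cells came from mice of the same age that were heterozygous for Eμ-Myc, in which the immunoglobulin heavy chain enhancer drives Myc in the B lineage. Malignant cells came from Eμ-Myc heterozygotes with spontaneous lymphoma, aged 10 to 20 weeks. According to the study's methods these were gated as B220+, IgM- and IgD-, and came from both sexes, whereas the other groups were female. Stage, age, sex and gate therefore cannot be told apart in any comparison with malignant cells.

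Developing B cells are held in the marrow and released from it by receptors of the kinds measured here. Cxcr4 binds Cxcl12, which marrow stromal cells make, and keeps B cell precursors in their niche. Cxcr5 and Ccr7 guide mature lymphocytes into follicles and T cell zones of lymph nodes and spleen, S1pr1 draws cells towards the sphingosine 1-phosphate (S1P) of blood and lymph, and S1pr4 is another S1P receptor of haematopoietic cells. Integrins work as pairs: Itga4 pairs with Itgb1 to bind Vcam1 and fibronectin, or with Itgb7 to bind the gut addressin Madcam1, and Itgb2 is the shared beta chain of the leukocyte integrins, LFA-1 (with Itgal) and Mac-1 (with Itgam) among them. Cd44 is a receptor for hyaluronan.

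The libraries held 30031100 to 53453055 counted reads, with the first replicate the deeper in every stage, and each member had at least 108 reads in every library. Myc counts checked which libraries carry the transgene. Levels are given as CPM (counts scaled to a common library total, with library sizes adjusted by the trimmed mean of M-values, TMM). Myc was at 33.8 and 41.4 CPM in wild type libraries, 1164 and 1155 in those of premalignant cells, and 1732 and 1578 in those of malignant cells. These values do not check premalignant against malignant labels, between which Myc was not called (log2 fold change 0.51, adjusted p = 0.16, edgeR). The malignant libraries were the least alike, with a median difference between replicates of 0.424 on the log2 scale over all tested genes, against 0.263 in wild type and 0.162 in premalignant cells. Of 14 pre-B and B lineage markers, 13 were called lower in premalignant cells against wild type and 13 in malignant cells against wild type. Of all tested genes 20.3% and 24.3% were called lower in these comparisons. The summed level of the 14 markers ranged from 8133 to 8826 CPM in wild type, 3701 to 3742 in premalignant and 3142 to 3446 in malignant libraries. Cd79a, a signalling chain of the B cell receptor, was at 732 CPM or more throughout but was among the markers called lower. Vpreb1, a surrogate light chain component, was at 115 and 131 CPM in wild type, 9.74 and 4.88 in premalignant, and 0.146 and 4.05 in malignant libraries, and Dntt, which adds nucleotides at immunoglobulin joins, was at 0.105 and 6.70 CPM in malignant libraries. These transcripts were nearly absent from malignant replicate 1, whereas Rag1, of the recombinase, was higher there than in replicate 2 (154 and 56.7 CPM).

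Wild type libraries also held more transcripts of other marrow cells. The summed level of 16 neutrophil and monocyte markers ranged from 1289 to 2919 CPM in wild type, 393 to 422 in premalignant and 98.3 to 181 in malignant libraries. All 16 were called lower in premalignant cells against wild type, as were all 7 natural killer (NK) cell markers, whose sum went from 82.0 to 259 CPM down to 3.80 to 13.5 and 4.02 to 5.91. Siglech, a defining marker of plasmacytoid dendritic cells, was at 204 and 138 CPM, then 39.0 and 19.6, then 1.67 and 21.9. The summed T cell markers ranged from 151 to 177 CPM in wild type, 63.1 to 69.6 in premalignant and 151 to 204 in malignant libraries; most of the malignant level was Cd2 (200 and 130 CPM), which B cells also express, and Cd3e was at or below 1.79 CPM in every library. The summed mature B cell markers ranged from 1263 to 1728 CPM in wild type, 1068 to 1120 in premalignant and 1074 to 1364 in malignant libraries, with 2 of 10 called higher and 7 lower in malignant cells against wild type. In bulk RNA, fewer cells of a type and less RNA per cell cannot be told apart. In premalignant libraries all these sums lay below wild type, beside the falls at that stage described below. In malignant libraries the sums of T cell and mature B cell markers overlapped wild type. The part of these markers in those results was not tested.

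**Figure D1:**
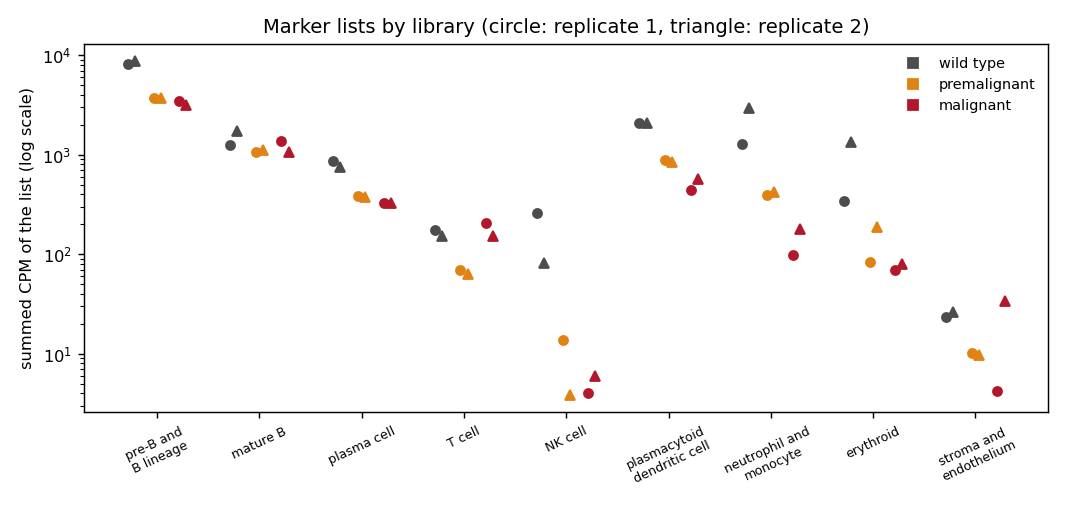
Summed CPM of 9 marker lists (log scale) in each of the 6 libraries, coloured by stage; circles are replicate 1 and triangles replicate 2. The neutrophil and monocyte, NK cell, plasmacytoid dendritic cell, erythroid, plasma cell, and pre-B and B lineage lists are higher in both wild type libraries than in any other library.

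Per exon length, Cxcr4 was the most abundant member at every stage. Its mean was 295 RPKM (CPM divided by the exon length in kilobases) in wild type cells, then 137 and 173 in the premalignant and malignant stages. Cxcr5 was the least abundant, at 2.83, 1.13 and 6.32 RPKM. Between these ends the order in wild type cells was S1pr4 (49.6 RPKM), Itgb2 (42.1), Ccr7 (34.0), S1pr1 (33.0), Itga4 (31.9), Cd44 (22.4) and Itgb7 (11.3), where the libraries of Ccr7, S1pr1 and Itga4 overlapped. In premalignant cells Itgb2 stood below Itga4 and S1pr1, at 14.6 RPKM, and neighbours Cd44 and Ccr7 overlapped, as did Itga4 and S1pr1. In malignant cells Itgb7 had the second highest mean RPKM, 87.4, but its libraries lay at 37.6 and 137, so that it overlapped Cxcr4 above it and S1pr4 below it.

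The first comparison asks what the Myc transgene changes before lymphoma, between premalignant and wild type cells of the same age. The 3 receptors lower in premalignant cells were of different kinds: the niche receptor Cxcr4, the follicle receptor Cxcr5 and the leukocyte beta chain Itgb2. No member was called higher by edgeR or by DESeq2, and none was higher at an unadjusted p under 0.05. A gene was called where edgeR's quasi-likelihood test gave a Benjamini-Hochberg adjusted p of at most 0.1 and the log2 fold change was at least 0.5 in size. With 3 of 9 members called, 33.3%, the members stood near the background, in which 39.3% of all tested genes were called, with 20.3% called lower and 19% higher. In 6 of 9 members both premalignant libraries lay below both wild type libraries, against 41.2% of all genes, and in 1 member both lay above, against 36.2%. The median log2 fold change of the members was -0.46, against -0.08 over all genes.

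The second comparison asks what sets lymphoma cells apart from premalignant cells that carry the same transgene. Cxcr5 and Itgb7 were higher in malignant cells by edgeR; no member was lower by edgeR or DESeq2, and none was lower at an unadjusted p under 0.05. At that unadjusted level 7 members were higher, against 3313 of 16683 genes that passed it in either direction. DESeq2 called 4 of 9, adding Ccr7 and Itga4, and its count of all genes called is given below. The 2 of 9 members called, 22.2%, are to be read against 6.18% of all tested genes called, with 3.73% called higher and 2.45% lower. Both malignant libraries lay above both premalignant libraries in 7 of 9 members, against 25.9% of all genes, and the median log2 fold change of the members was 0.62, against 0.04 over all genes. The third comparison, of malignant with wild type cells, called 3 of 9 members, against 49.2% of all genes: Cxcr5 and Itgb7 were higher (24.9% of genes were called higher), and Itgb2 was lower (24.3%). Without regard to calls, both malignant libraries lay above both wild type libraries in 3 members (35.3% of all genes) and below them in 2 (36.4%). The first and second comparisons share the premalignant libraries, so their values are not independent.

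**Figure D2:**
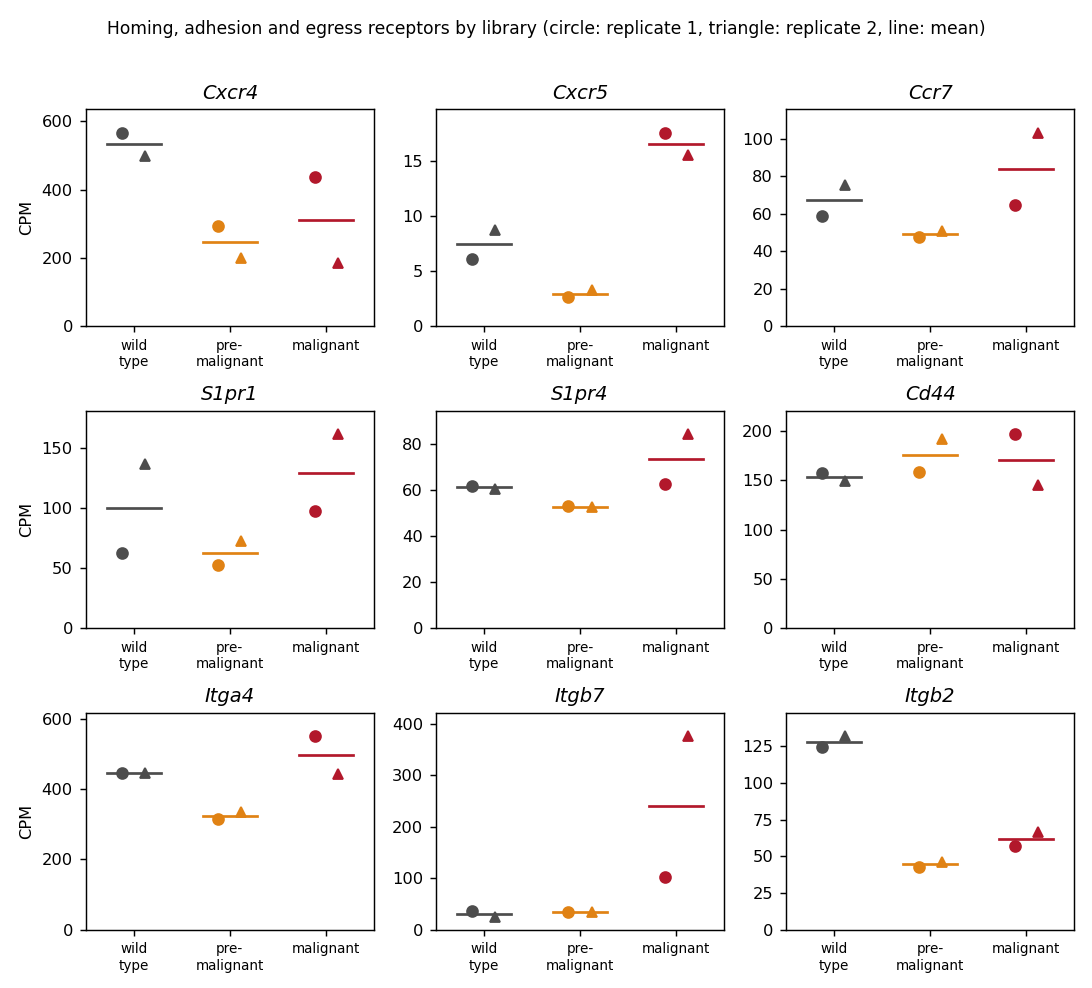
CPM of the 9 members (linear axes from 0) in wild type, premalignant and malignant libraries; circles are replicate 1, triangles replicate 2 and lines the mean of 2 libraries. Cxcr5, Ccr7, S1pr4, Itga4 and Itgb2 have their lowest pair of libraries in premalignant cells, and Itgb7 is high in malignant cells only, at 103 and 376 CPM.

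Cxcr4 was at 567 and 498 CPM in wild type, 295 and 199 in premalignant, and 438 and 186 in malignant libraries. Wild type and premalignant libraries did not overlap, whereas malignant replicate 1 lay above both premalignant libraries and replicate 2 below both. The level in premalignant cells was 0.464 times that of wild type, a log2 fold change of -1.11 ± 0.41 (SE) with an edgeR adjusted p of 0.083. This call was lost when any wild type or premalignant library was left out, with adjusted p from 0.17 to 0.36. Between malignant and premalignant cells the log2 fold change was 0.34 ± 0.40 (adjusted p = 0.71, edgeR), and it was -0.41 without malignant replicate 1. Against wild type, malignant cells gave -0.77 ± 0.40 (adjusted p = 0.17, edgeR), and -1.51 with an adjusted p of 0.0038 without malignant replicate 1. With the replicate number as a block it was called (-0.89, adjusted p = 0.041, edgeR). DESeq2 and total counts without scaling also called Cxcr4 lower in malignant cells against wild type, whereas 11 of the alternatives did not.

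Cxcr5, although rare, changed at both steps. Its reads numbered 348 and 308 in wild type, 139 and 108 in premalignant, and 838 and 432 in malignant libraries, which correspond to 6.10 and 8.72, 2.65 and 3.25, and 17.5 and 15.5 CPM. No stage overlapped another. The log2 fold change was -1.33 ± 0.29 from wild type to premalignant cells (adjusted p = 0.020, edgeR) and 2.49 ± 0.30 from premalignant to malignant cells (adjusted p = 0.023). Malignant cells also stood above wild type, by 2.23 times the mean CPM (log2 fold change 1.16 ± 0.29, adjusted p = 0.020, edgeR). The fall was no longer called without wild type replicate 2 or without either premalignant library (adjusted p from 0.12 to 0.16), nor was the rise without either premalignant library (0.31 and 0.22). Leaving out wild type replicate 1 ended the call against wild type (adjusted p = 0.11). The summed mature B cell markers in the same libraries are given above, and their part in this result was not tested.

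Ccr7 had 59.1 and 75.4 CPM in wild type, 47.8 and 51 in premalignant, and 64.6 and 103 in malignant libraries. Premalignant libraries were below those of both other stages, and malignant and wild type libraries overlapped. None of the differences was called: the log2 fold change was -0.45 ± 0.25 (adjusted p = 0.22, edgeR) at the first step and 0.77 ± 0.25 (adjusted p = 0.17) at the second.

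The S1P receptors were called in no comparison. S1pr1 was at 63.0 and 137 CPM in wild type, 52.5 and 72.7 in premalignant, and 97.7 and 162 in malignant libraries, so the spread within wild type covered most of the range, and replicate 2 was the higher in each stage. Malignant libraries lay above premalignant libraries (log2 fold change 1.05 ± 0.42), but the adjusted p was 0.24 with edgeR. With the replicate number as a block the first step became -0.59 (adjusted p = 0.068) and the second 1.02 (adjusted p = 0.067), both called. S1pr4 held within 52.5 to 84.1 CPM in all 6 libraries, at 61.8 and 60.2, 52.9 and 52.5, and 62.6 and 84.1 CPM, with log2 fold changes of -0.21 ± 0.17 and 0.47 ± 0.17 at the first and second step (adjusted p = 0.39 and 0.20, edgeR). S1pr4 had 1.08 to 2.48 times the RPKM of S1pr1 in every library.

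Cd44 had the narrowest range over the 6 libraries as a ratio of highest to lowest, at 158 and 149 CPM in wild type, 159 and 192 in premalignant, and 197 and 145 in malignant libraries. The malignant libraries were the highest and the lowest of the 6. Its log2 fold changes were 0.19 ± 0.19, -0.04 ± 0.19 and 0.16 ± 0.19 in the 3 comparisons, with adjusted p of 0.47, 0.95 and 0.54 (edgeR).

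**Figure D3:**
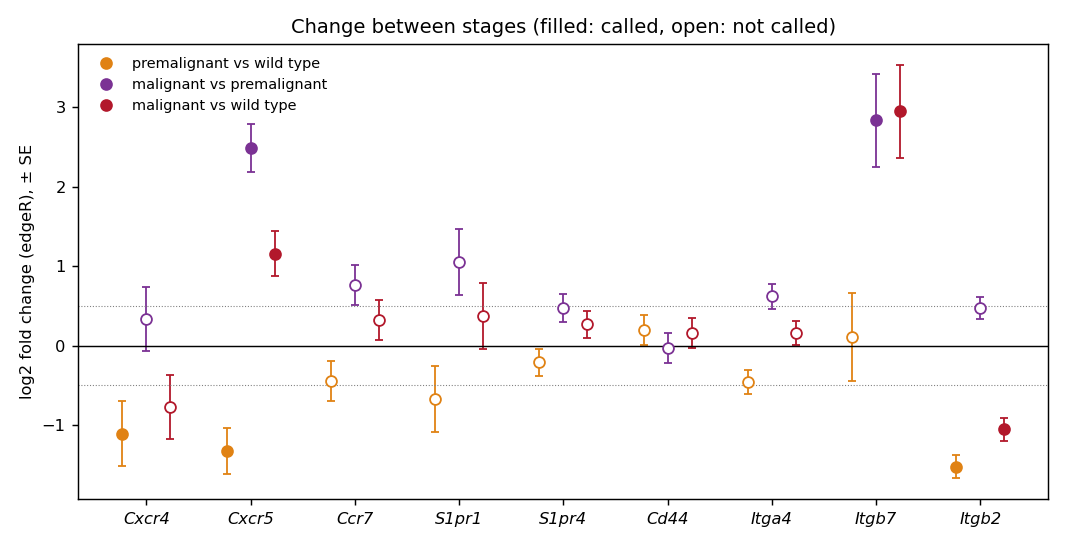
Log2 fold change of each member (edgeR, bars ± SE) in the 3 comparisons, filled where called; dotted lines mark 0.5 and -0.5. Cxcr5 and Itgb7 have the largest values in malignant against premalignant cells, 2.49 and 2.84, and Itgb2 the lowest value in premalignant against wild type cells, -1.53.

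Itga4, the alpha chain of the Vcam1 receptor, was at 446 and 446 CPM in wild type, 315 and 334 in premalignant, and 552 and 445 in malignant libraries. The premalignant libraries were below all others, and malignant and wild type libraries overlapped. The first step had an adjusted p of 0.066 with edgeR, but its log2 fold change of -0.46 ± 0.15 was below the size needed for a call. This fall was called in 4 of the alternatives and not in 12. Members called lower at this step numbered 4 with upper-quartile scaling and with total counts, against 3 in the main fit. The second step, 0.62 ± 0.15, had an adjusted p of 0.10 and just missed. The exons of Itga4 overlap those of Cerkl on the opposite strand, which had 61 to 175 reads a library against at least 11094 for Itga4.

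Itgb7 had the largest fitted change of the members in malignant cells, and was called higher there than at both other stages. It was at 36.9 and 25.3 CPM in wild type and 33.5 and 33.6 in premalignant libraries, then at 103 and 376 in malignant libraries. Both malignant libraries lay above all others, but they differed from each other 3.65-fold, the widest gap within a stage for any member. The log2 fold change was 2.84 ± 0.59 against premalignant (adjusted p = 0.068, edgeR) and 2.94 ± 0.59 against wild type cells (adjusted p = 0.0097). Without malignant replicate 2 these were 1.58 and 1.75. The call against premalignant cells was lost in a fit of those 2 stages alone (adjusted p = 0.17) and without any 1 of the 4 wild type and premalignant libraries (from 0.16 to 0.47), whereas the call against wild type held in all 6 fits that left out a library. The first step gave 0.11 ± 0.55 (adjusted p = 0.90, edgeR).

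Itgb2 fell from 125 and 132 CPM in wild type to 43.1 and 46.0 in premalignant libraries, and was at 56.9 and 66.6 in malignant libraries. The 3 stages did not overlap. Its fall of -1.53 ± 0.14 on the log2 scale (adjusted p = 0.0022, edgeR) and its level in malignant cells against wild type, -1.05 ± 0.14 (adjusted p = 0.0026), were called in all 6 fits that left out a library. The second step, 0.47 ± 0.14, was not called (adjusted p = 0.15, edgeR). Beside Itgb2, wild type libraries 1 and 2 had summed markers of 1289 and 2919 CPM for neutrophils and monocytes, and 259 and 82.0 CPM for NK cells. The sum for plasmacytoid dendritic cells was 2097 and 2080 CPM, of which Spib alone made up 1585 and 1726. Siglech made up 204 and 138 CPM of it. All these sums were lower at the other stages, and their part in this result was not tested.

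A test of the difference between the steps, the second log2 fold change minus the first, was called in 3 of 9 members, against 9.63% of all tested genes (4.36% higher). The difference was 3.81 ± 0.55 for Cxcr5 (adjusted p = 0.031, edgeR), 2.00 ± 0.25 for Itgb2 (adjusted p = 0.026) and 1.07 ± 0.27 for Itga4 (adjusted p = 0.087), positive in each. It was positive but not called for Itgb7 (2.73 ± 1.01, adjusted p = 0.18, edgeR), S1pr1 (1.73 ± 0.74, 0.23), Cxcr4 (1.45 ± 0.72, 0.28), Ccr7 (1.21 ± 0.44, 0.17) and S1pr4 (0.69 ± 0.30, 0.24), and -0.23 ± 0.32 for Cd44 (0.70). None of the 3 calls held without premalignant replicate 1, premalignant replicate 2 or wild type replicate 2 (adjusted p from 0.12 to 0.57), and that of Itga4 was also lost without wild type replicate 1 (0.16) and with the replicate block (0.13).

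The integrin chains that can pair with the members were compared per length. Itgb1 was at 30.8 and 22.8 RPKM in wild type, 23.3 and 23.7 in premalignant, and 46.6 and 46.1 in malignant libraries, and rose from premalignant to malignant cells (log2 fold change 0.98, adjusted p = 0.046, edgeR). The RPKM of Itgb7 was 0.436 and 0.403 times that of Itgb1 in wild type and 0.525 and 0.518 times in premalignant libraries. In malignant cells this ratio was 0.806 in replicate 1 and 2.98 in replicate 2, so that Itgb7 exceeded Itgb1 in replicate 2 alone. Itgal and Itgam, partners of Itgb2, fell with it: Itgal had 127 and 104 CPM in wild type, 39.8 and 43.4 in premalignant, and 43.6 and 19.1 in malignant libraries (first step -1.48, adjusted p = 0.029, edgeR), and Itgam 56.1 and 103, 17.0 and 20.1, and 7.93 and 21.9 CPM (-2.10, adjusted p = 0.027). Itgam also belongs to the neutrophil and monocyte markers.

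**Figure D4:**
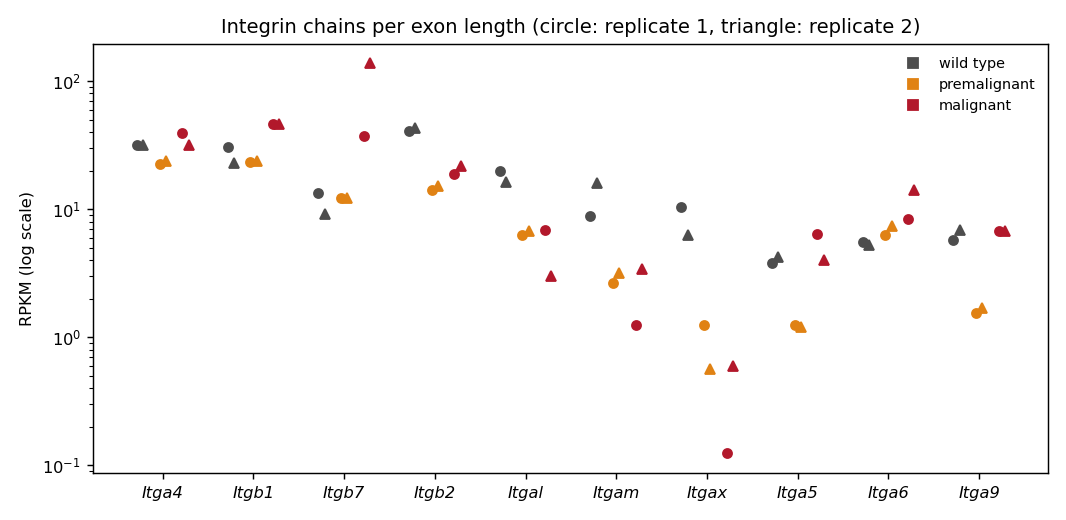
RPKM of 10 integrin chains (log scale) by stage; circles are replicate 1 and triangles replicate 2. Itgb7 is at 37.6 and 137 RPKM in malignant libraries and at 13.5 or less in all others, while Itgb2, Itgal, Itgam and Itgax are highest in wild type.

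Of 15 other integrin chains tested, 10 were called lower and none higher in premalignant cells against wild type by edgeR and by DESeq2. By edgeR 20.3% of all genes were called lower and 19% higher there. The median log2 fold change of the 15 was -1.48, and none was higher at an unadjusted p under 0.05. From premalignant to malignant cells 5 were called higher and none lower by edgeR, against 3.73% and 2.45% of all genes. With DESeq2 the counts were 6 and none, and at an unadjusted p under 0.05 they were 7 and 1. Itga5 and Itga9, alpha chains of fibronectin and tenascin receptors, fell and then rose: Itga9 had 44.0 and 53.4, 12 and 13.1, and 51.6 and 52.2 CPM (log2 fold changes -1.96 and 2.05, adjusted p = 0.0019 and 0.011, edgeR), and Itga5 16.6 and 18.5, 5.49 and 5.27, and 28.1 and 17.6 CPM (-1.70 and 2.09, 0.0079 and 0.026). Itga1, of a collagen receptor, had no read in premalignant replicate 1 and 0.121 CPM in replicate 2, and 16.9 and 8.14 CPM in malignant libraries. Itgax, a marker of dendritic and myeloid cells, went from 42.1 and 25.4 CPM in wild type to 5.07 and 2.29 and then 0.502 and 2.44. Itgb3 was lower in malignant cells against wild type (-2.52, adjusted p = 0.0039, edgeR).

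Genes that act in or downstream of integrin activation, whether for or against it, were called lower more often than higher against wild type. In premalignant cells against wild type 2 of 25 tested were called higher and 9 lower, against 19% and 20.3% of all genes. In malignant cells against wild type 3 were called higher and 9 lower, against 24.9% and 24.3% of all genes. The focal adhesion kinase gene Ptk2 was at 2.77 and 2.83 CPM in wild type, 20.9 and 36.7 in premalignant, and 96.0 and 115 in malignant libraries, and was called higher at both steps (log2 fold changes 3.36 and 1.87, adjusted p = 0.0021 and 0.033, edgeR). Tln2, a talin, had 0.508 and 0.680, 6.10 and 8.95, and 15.6 and 10.4 CPM. Vcl, the gene of vinculin, which links talin to actin, was called at the second step, at 86.1 and 52.8 CPM against 19.8 and 22.1 (1.73, adjusted p = 0.037, edgeR). Rasgrp3, an activator of Rap1 and Ras, fell at both steps, from 16.9 and 17.5 to 2.06 and 1.51 and then 0.439 and 0.430 CPM. Fyb, of the adaptor ADAP, and Cyth1, cytohesin-1, which binds the Itgb2 tail, fell at the first step (-2.10 and -1.13, adjusted p = 0.079 and 0.0033, edgeR). The activators Tln1 and Fermt3 were called in no comparison, at 510 to 659 and 161 to 246 CPM.

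Among chemoattractant receptors that are not members, 12 of 15 tested were called lower and 1 higher in premalignant cells against wild type. Of all genes 20.3% were called lower and 19% higher there. The median log2 fold change of the 15 was -2.23. None of the 15 was called between malignant and premalignant cells by edgeR; DESeq2 called 1 higher and 1 lower, and 2 were higher and 1 lower at an unadjusted p under 0.05. Ccr2, a receptor of monocytes, went from 57.0 and 24.4 CPM in wild type to 3.77 and 2.89 in premalignant and 0.607 and 2.55 in malignant libraries. Ccr9, which gut-homing lymphocytes and plasmacytoid dendritic cells carry, had 63.1 and 30.6, 13.5 and 6.39, and 1.61 and 10.7 CPM, and Cxcr2, a neutrophil receptor, 11.5 and 26.0, 5.07 and 4.46, and 3.77 and 2.15. These falls run beside those of the neutrophil, monocyte, NK cell and dendritic cell markers given above. Gpr132, a receptor for oxidised lipids that is named after its values were seen, went the other way, from 21.5 and 28.1 CPM to 44.2 and 48.7 and then 63.2 and 79.5 (log2 fold change 0.91 at the first step, adjusted p = 0.019, edgeR).

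**Figure D5:**
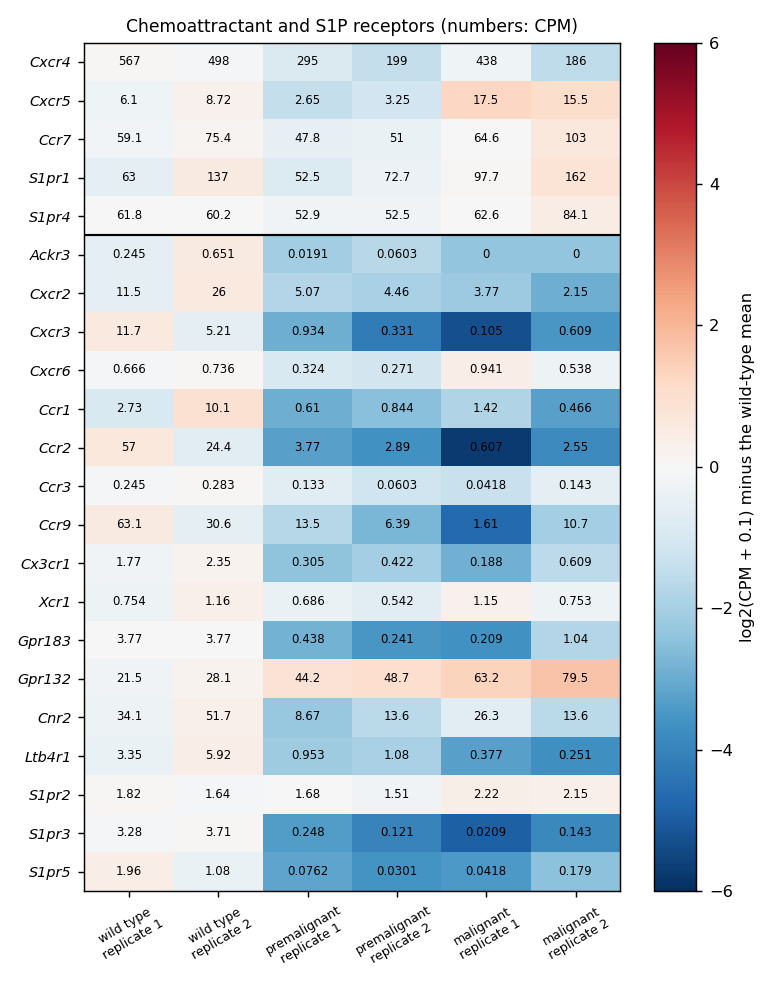
Chemoattractant and S1P receptors in each library; colour is log2(CPM + 0.1) minus the wild type mean and the printed numbers are CPM, with members above the black line. Most receptors below the line are lower in all 4 Eμ-Myc libraries than in wild type, and Gpr132 is higher. Of the members Cxcr5 and S1pr4 are higher in both malignant libraries than in both wild type libraries. For S1pr4 this was not called, and the nearest malignant and wild type libraries are at 62.6 and 61.8 CPM.

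Of 11 other genes of S1P receptors and S1P handling, 7 were called lower and 1 higher in premalignant cells against wild type. Of all genes 20.3% were called lower and 19% higher there. The 1 higher was lost with upper-quartile or total-count scaling. Cd69, whose protein holds S1pr1 inside the cell, was at 26.7 and 120 CPM in wild type, 2.29 and 3.22 in premalignant, and 5.15 and 4.95 in malignant libraries (first step -4.74, adjusted p = 0.0068, edgeR). Klf2, a transcription factor that promotes S1pr1 expression in lymphocytes, was at 140 and 504 CPM in wild type, at 121 and 101 in premalignant and at 134 and 134 in malignant libraries (first step -1.54, adjusted p = 0.073, edgeR). S1pr1, Klf2 and Cd69 were all higher in wild type replicate 2 than in replicate 1. The S1P exporter Spns2 (18.3 and 28.3 CPM in wild type, 3.51 and 4.01 in premalignant libraries) and the S1P lyase Sgpl1 (68.9 and 67.7, then 38.7 and 41.9) fell at the first step, with log2 fold changes of -2.63 and -0.76 (adjusted p = 0.0094 and 0.037, edgeR). The S1P phosphatase Sgpp1 was the 1 called higher, at 46.4 and 37.0, then 59.3 and 64.6, and in malignant libraries 110 and 82.8 CPM (0.57, adjusted p = 0.070, edgeR).

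Of 19 other adhesion receptors tested, 8 were called lower and none higher at the first step, against 20.3% of all genes called lower, and 11 were not called (1 higher at an unadjusted p under 0.05, and 9 and none with DESeq2). None was called at the second step by edgeR, where DESeq2 called 2 higher and 2 were higher at an unadjusted p under 0.05. Cd9, a tetraspanin, went from 18.5 and 21.4 to 5.03 and 4.28 CPM, Cd47 from 270 and 251 to 123 and 123, and Pecam1 from 192 and 240 to 79.3 and 99.3. Selplg, the ligand of P-selectin, had 215 and 179, then 112 and 117 CPM. Cd22, a sialic acid receptor of B cells, was higher in malignant cells against wild type, at 336 and 381 against 148 and 236 CPM (0.90, adjusted p = 0.023, edgeR).

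Transcripts of the chemokine ligands and of Madcam1 were scarcely present in the sorted cells. Cxcl12 had 2 to 7 reads a library, Madcam1 and Ccl19 had 1 read in wild type replicate 1 and 0 elsewhere, and Cxcl13 and Ccl21a had none, where 0 reads allows up to 3 reads, or 0.0526 to 0.108 CPM for counting error alone. The list of ligands had 3 genes with enough reads to test, Vcam1, Fn1 and Hmmr, the last of which encodes a hyaluronan receptor. Fn1, fibronectin, was at 11.6 and 17.8 CPM in wild type and 2.09 and 3.05 in malignant libraries (-2.52, adjusted p = 0.0073, edgeR).

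Over the 6 libraries the members most alike in pattern were Ccr7 and S1pr4, with a root mean square difference of 0.181 between their centred log2 CPM, then S1pr4 and Itga4 (0.238) and Ccr7 and S1pr1 (0.275). Among 8656 protein-coding genes with a mean of at least 10 CPM, the nearest to Cxcr5 was Stom (0.0926; 20.7 and 32.5, 9.24 and 11.9, and 59.6 and 63.1 CPM), then Afap1 (0.196) and Cd2 (0.205). The nearest to Itgb2 was Sipa1l2 (0.105), and to Cxcr4 Fmnl3 (0.143). S1pr1 lay closest to Arrb1 (0.223), the gene of beta-arrestin 1, S1pr4 to Zxdc (0.0267) and Itga4 to 1810013D10Rik (0.0432). Itgb7 had no close neighbour, its nearest being 9030617O03Rik (0.374) and Plec (0.420), the plectin gene, which had 57.8 and 66.7, 51.5 and 57.3, and 182 and 367 CPM. The differences were not scaled to how much each gene varies, so genes that vary little lie near one another. These are descriptions over libraries that differ in stage and depth.

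The members lie on 7 chromosomes of the mouse build used for counting, NCBI build 37 (mm9), among them Cxcr4 at chr1:130484776-130488870 on the minus strand, Itgb7 at chr15:102046426-102062366 on the minus strand and Itga4 at chr2:79095583-79173280 on the plus strand. Promoter sequence was read from RefSeq for build GRCm38.p6, which held 5 of the 9 members, as the 250 bases before the start of the gene. The E-box CACGTG, which Myc with Max binds, was in 0 of these 5 windows on either strand, against 6.02% of 32851 promoters. The motif CACCC, which Klf factors bind, was in 4 of 5, against 52.0%, and TGTTTAC, of Foxo factors, in 0 of 5, against 3.17%; none of the 3 motifs overlaps another in these letters. A match is a description of the letters only. Shown here are the windows of Itgb7 and Itga4, whose protein products pair with each other and which have the most CACCC matches, and of Cxcr4, the most abundant member; capitals mark CACCC or its reverse complement GGGTG, and each is written on the strand of the gene. The windows are chr15:102231936-102232185 (minus strand), chr2:79255176-79255425 (plus strand) and chr1:128592300-128592549 (minus strand) in GRCm38.p6.
Itgb7: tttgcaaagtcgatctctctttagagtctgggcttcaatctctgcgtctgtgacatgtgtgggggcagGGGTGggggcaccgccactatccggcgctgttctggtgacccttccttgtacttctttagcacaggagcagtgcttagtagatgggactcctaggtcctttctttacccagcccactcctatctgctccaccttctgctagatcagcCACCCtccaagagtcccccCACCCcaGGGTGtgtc
Itga4: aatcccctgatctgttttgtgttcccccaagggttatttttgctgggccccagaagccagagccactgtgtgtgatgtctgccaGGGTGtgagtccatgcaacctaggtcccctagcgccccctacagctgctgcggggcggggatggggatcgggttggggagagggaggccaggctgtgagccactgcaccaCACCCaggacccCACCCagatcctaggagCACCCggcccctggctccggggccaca
Cxcr4: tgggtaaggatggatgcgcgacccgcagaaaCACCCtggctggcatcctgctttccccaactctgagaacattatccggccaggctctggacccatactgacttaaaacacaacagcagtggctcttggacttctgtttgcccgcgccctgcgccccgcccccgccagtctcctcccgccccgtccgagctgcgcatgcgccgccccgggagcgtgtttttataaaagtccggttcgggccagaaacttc

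Itgb7 and Itga4 each had 4 matches, and Cxcr4 had 1, which began 219 bases before the start.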

How the data were processed

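Bone marrow pre-B cells of 3 stages were profiled, in 2 libraries a stage that the study calls biological replicate experiments. Libraries were made from polyA RNA with an unstranded kit and sequenced as 50-bp single reads. The authors aligned the reads with TopHat to mm9 and deposited HTSeq read counts per gene, 1 file a library; HTSeq's options are not given in the sources used here. The deposited tables of fold changes and p-values from the authors' own DESeq comparisons were not used.

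Counts of all 37991 identifiers were read as deposited, and symbols came from GENCODE vM1 (37205 matched). edgeR 4.0.16 in R 4.3.3 fitted all 6 libraries together (filterByExpr, TMM, quasi-likelihood test), leaving 16683 genes, over all of which p-values were adjusted (Benjamini-Hochberg). As in the study, a gene was called at an FDR of 0.1 or less if its log2 fold change was 0.5 or more in size. Standard errors are the log2 fold change divided by the square root of F. CPM used TMM library sizes, RPKM also the summed exon length. The script was tested on simulated counts. With 2 libraries a stage, each p-value sets a difference between stages against the spread between these libraries. That spread was estimated from all 6 libraries together, with information shared across genes.

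All 9 members are named. From each list of related genes the text names up to 4 with the largest called change in each comparison and at least 10 CPM; others named in the text were chosen after their values were seen, and some genes are not reported here. The members and all lists were chosen with earlier results of these data known. Alternatives were DESeq2 1.42.0, other scalings, filters and thresholds, a replicate block, fits of 2 stages alone, and leaving out each library.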

Additional observations from a re-analysis of the deposited data

How the results depend on the processing

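Against wild type, the calls of Itgb2 in premalignant and malignant cells and of Itgb7 in malignant cells held under all alternatives run, whereas the malignant to premalignant calls depended on the libraries. For that comparison members called numbered 2 of 9 and genes called 1031; DESeq2 gave 4 and 2169, no filter on low counts 5 and 2810, a fit of the 2 stages alone 1 and 258, and an FDR of 0.05 gave 1 and 407. Leaving out 1 library gave 0 to 6 members and 0 to 3805 genes. The 0 came without either premalignant library, where edgeR found 1472 and 1777 genes at an unadjusted p under 0.05; without a wild type library 1 member and 239 or 244 genes were called, and without malignant replicate 1 or 2, 6 and 4 members. In fits that leave a stage with 1 library, that library is assumed to vary like the others. From wild type to premalignant cells 3 members and 6563 genes were called, with 4282 genes at an absolute log2 fold change of 1 and, leaving out 1 library, 1 to 3 members and 2094 to 8455 genes, the lowest counts without wild type replicate 2 or a premalignant library. Members called in malignant against wild type cells numbered 2 to 5 without 1 library, the 5 without malignant replicate 1 and the 2 without wild type replicate 1. The difference between the steps was called in 6 members with DESeq2, 7 with no filter and 0 to 7 without 1 library, 0 without wild type replicate 2 or either premalignant library and 7 and 5 without malignant replicates 1 and 2. For this difference the share of all genes called, 9.63%, is given for the main fit only. At an unadjusted p under 0.05 the main edgeR fit had 5 members and 3881 of 16683 genes. DESeq2 had 7 members and 4365 of 26485 genes there, and edgeR with no filter 7 members and 4957 of 26485 genes. The causes were not tested.

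Total counts without scaling moved the all-gene median (log2) by -0.21, -0.08 and -0.30 in the 3 comparisons, and upper-quartile scaling by -0.08, -0.08 and -0.17. The share of calls that were higher went with them, from 48.3%, 60.4% and 50.6% to 33.6%, 50.6% and 35.5% on total counts and to 42.5%, 49.7% and 42.1% with upper-quartile scaling. On total counts the sign turned at the first step for Cd44 (-0.018) and Itgb7 (-0.099), and against wild type in malignant cells for S1pr4 (-0.028), Cd44 (-0.14) and Itga4 (-0.14); with upper-quartile scaling it turned there for Cd44 (-0.0087) and Itga4 (-0.0058). None of these 7 values was called. Without 1 library the sign turned, over the range given, at the first step for Itgb7 (-0.13 without wild type replicate 2 to 0.41), at the second for Cd44 (-0.27 to 0.11 and 0.13 without premalignant or malignant replicate 2) and Cxcr4 (-0.41 without malignant replicate 1 to 0.79), and in the difference between the steps for Cd44 (-0.50 to 0.053 without premalignant replicate 2). In malignant against wild type cells it turned for S1pr1 (-0.076 without wild type replicate 1 and -0.0039 without malignant replicate 2, to 1.04), Cd44 (-0.069 without malignant replicate 1, to 0.38) and Ccr7 (-0.030 without malignant replicate 2, to 0.63).

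Libraries share a replicate number across stages, which the labels do not tie to an animal, litter or day, and which goes with depth. Deviations from the stage means correlated between same-numbered libraries at 0.545, 0.244 and 0.311 over 16683 genes for wild type with premalignant, wild type with malignant, and premalignant with malignant. With the replicate block 4, 3 and 4 members were called in the 3 comparisons and 3 in the difference between the steps: S1pr1 was added at both steps and in their difference (1.61, adjusted p = 0.082, edgeR), Cxcr4 in malignant against wild type cells (-0.89, adjusted p = 0.041), and Itga4 was lost in the difference. At an unadjusted p under 0.05 (edgeR) the block gave 5, 7, 4 and 7 members in the same order. Of all 16683 genes it gave 7238, 3103, 8500 and 3703 at that level.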

Other observations

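Tested genes that carry or quench the signals of chemoattractant receptors numbered 40. In premalignant cells against wild type 16 were called lower and 1 higher (edgeR), against 20.3% and 19% of all genes. Their median log2 fold change was -0.42. In malignant cells against wild type 16 were called lower and 3 higher, against 24.3% and 24.9% of all genes. The falls included regulators of G protein signalling, which shorten receptor signals. Rgs2 was at 313 and 616 CPM in wild type, 44.9 and 59.1 in premalignant, and 85.9 and 24.1 in malignant libraries (log2 fold change -3.16 at the first step, adjusted p = 0.015, edgeR). Rgs10 had 20.9 and 13.3, 1.79 and 1.54, and 1.97 and 1.40 CPM, and Rgs18 14.9 and 14.6, 2.53 and 2.08, and 0.230 and 1.00 CPM. Downstream of the receptors, the phosphoinositide 3-kinase gene Pik3cg went from 217 and 193 CPM to 111 and 118 and then 79.3 and 60.5, and was called lower at both steps (-0.84 and -0.71, adjusted p = 0.015 and 0.095, edgeR). Dock10, a guanine nucleotide exchange factor, had 201 and 181, 92.2 and 79.5, and 76.1 and 51.2 CPM, and the G protein subunit gene Gng2 81.4 and 83.9, 29.9 and 38.6, and 52.1 and 38.4 CPM. Elmo1, which works with Dock2 to activate Rac and was chosen after its value was seen, was the 1 called higher at the first step, at 90.2 and 79.0 CPM in wild type and 169 and 173 in premalignant libraries (1.01, adjusted p = 0.0047, edgeR). Gnai2, the most abundant inhibitory alpha subunit, was called in no comparison, at 355 to 495 CPM.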
